A study of Mus musculus with 9 samples.

Results

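Glycolysis enzyme genes were followed in the renal cortex of diabetic and non-diabetic mice, as 10 genes selected by their official symbols from the 21950 genes of the mRNA tables: Hk1, Hk2, Gpi1, Pfkl, Pfkm, Pfkp, Aldoa, Pgk1, Pkm and Ldha. All 10 were found, and all 10 passed the minimum mean level of 0.1 FPKM that 14537 genes reached. FPKM is the number of fragments scaled to the length of the transcript and to the mapped fragments of the library. Levels can thus be set side by side between genes of a library, whereas differences between libraries also depend on what else each library holds. No further scaling between libraries was applied in the main fit. A gene's level was the sum over its transcripts. RNA-seq was performed on 3 male C57BL/KsJ mice per group, with 1 library per mouse. Control mice were db/m littermates, which carry 1 mutant copy of the leptin receptor gene (db) and received the vehicle. The dbdb mice carried the db mutation on both copies and also received the vehicle, and the dbR mice were db/db mice given rosiglitazone, an insulin sensitizer that activates PPARγ, at 20 mg/kg per day. Vehicle or drug was given by gavage for 8 weeks, from 7 to 15 weeks of age, when the cortex was taken. The db mutation acts in the whole body, so these mice are obese and hyperglycaemic, and no group separates the loss of leptin signalling from diabetes.

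Glycolysis splits glucose into pyruvate. Hexokinases trap glucose in the cell by phosphorylation, phosphofructokinases take the committed step, and pyruvate kinases take the last step, after which lactate dehydrogenase can convert pyruvate to lactate. In the kidney the proximal tubule mainly oxidizes fatty acids and makes glucose, whereas the distal nephron and collecting duct rely more on glycolysis. Most steps have several isoenzymes that are encoded by different genes and differ between cell types.

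In dbdb vs. control, 4 of the 10 genes were upregulated and 1 was downregulated, when 26.4% of all genes tested were called in either direction. Hk1 and Pkm rose most, by 1.84-fold and 1.79-fold on the log2(FPKM + 0.1) scale, Pfkl and Pfkm rose by 1.36-fold and 1.20-fold, and Ldha fell to 0.755 of the control level. The same 5 genes were called in the same directions in dbR vs. control, where 24.1% of all genes were called, and none of the 10 was called in dbR vs. dbdb, where 0.743% of all genes were called. No change was called for Hk2, Gpi1, Pfkp, Aldoa and Pgk1.

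The proximal tubule markers were present in every library at a summed level of 4993 to 7736 FPKM, and this segment makes up most of the cortex. The libraries held an estimated 24.8 M to 30.8 M fragments, with mitochondrial genes taking 26.9% to 32.8% of the mRNA FPKM. The summed level of erythroid markers was 104 FPKM in control replicate 1 and between 6.73 and 23.6 FPKM in the other libraries, and without that library 5 of the 10 genes were still called in dbdb vs. control. Of all 14537 genes tested, 26.4% were called in dbdb vs. control, 1899 higher and 1941 lower, at an adjusted p under 0.05 in limma with Benjamini-Hochberg adjustment. For dbR vs. dbdb 0.743% were called, 82 higher and 26 lower, and in dbR vs. control 24.1%, 1786 higher and 1711 lower. The 108 genes called in dbR vs. dbdb fell to 2 without dbR replicate 2, 10 without dbR replicate 3, 70 without dbR replicate 1, 36 without dbdb replicate 1 and 31 without dbdb replicate 2. The splits by direction move with the scaling: with mitochondrial genes left out and libraries set to equal sums they were 3492 to 969, 52 to 55 and 2404 to 1006, and with scaling on the 75th percentile the comparisons with control gave 2338 to 1552 and 2273 to 1271. The comparisons dbdb vs. control and dbR vs. control share the 3 control libraries, so they are not independent of each other.

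**Figure D1:**
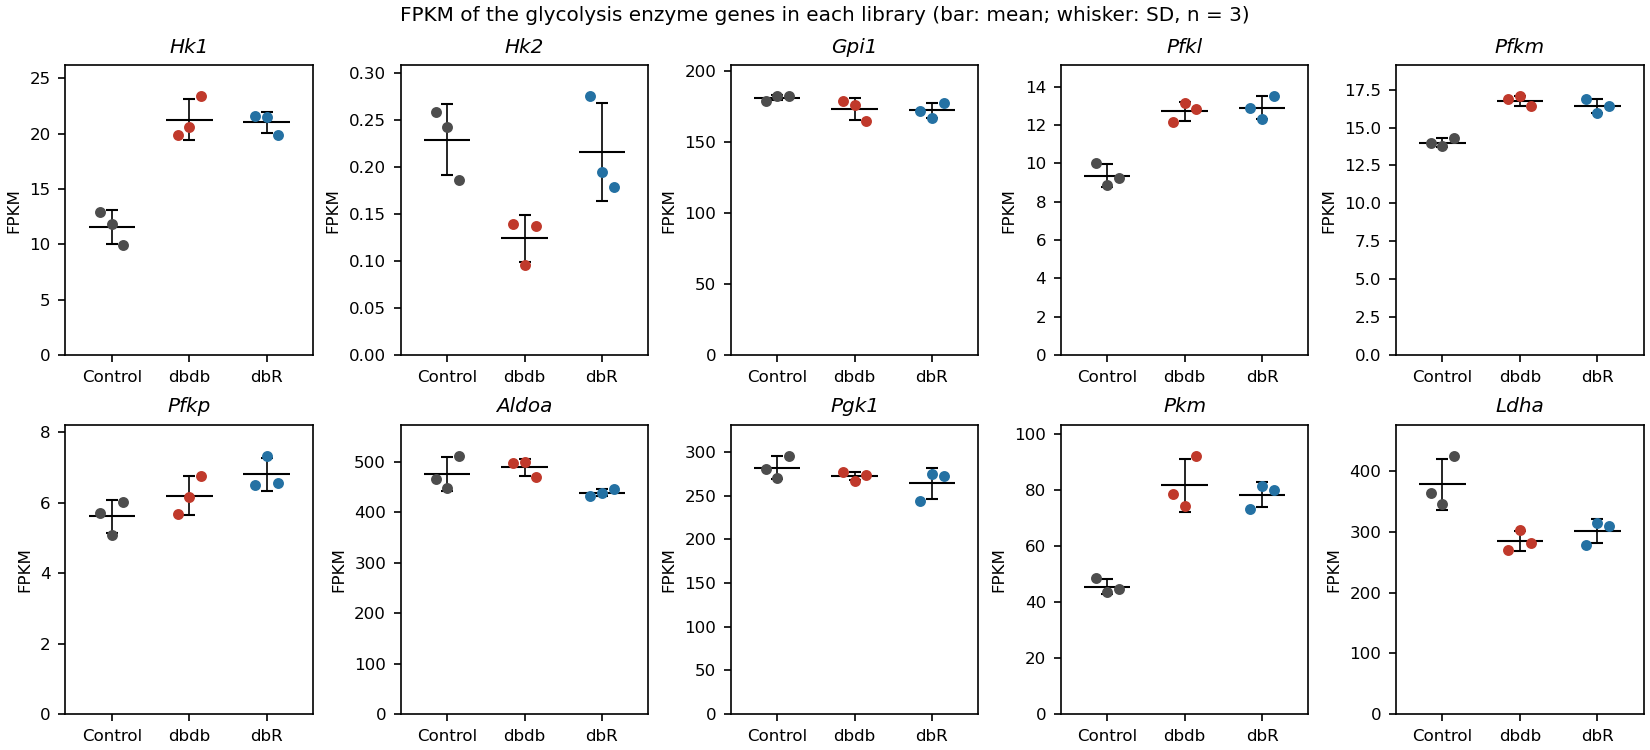
Level of each of the 10 glycolysis enzyme genes in FPKM (vertical axes start at 0 and differ between panels) in the 3 control, 3 dbdb and 3 dbR libraries; points are libraries, horizontal bars are means and whiskers are SD (n = 3). Hk1, Pfkl, Pfkm and Pkm lie higher and Ldha lower in all dbdb and dbR libraries than in all control libraries, whereas the dbdb and dbR points of these 5 genes overlap.

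The 10 genes spanned a wide range of levels. Aldoa was the most abundant in each group, at 476 ± 32.8 FPKM (SD, n = 3) in control, 489 ± 17.1 in dbdb and 439 ± 6.89 in dbR, and only 142 of the 14537 genes had a higher mean over the 9 libraries. Hk2 was the least abundant in each group, at 0.229 ± 0.0378, 0.124 ± 0.0251 and 0.216 ± 0.0518 FPKM. The order in control was Aldoa, Ldha, Pgk1, Gpi1, Pkm, Pfkm, Hk1, Pfkl, Pfkp and Hk2, and the neighbours whose libraries overlapped in it were Hk1 and Pfkl. In dbdb and dbR libraries Hk1 stood above Pfkm, without overlap. Ldha and Pgk1, which were 1.34 times apart in control, overlapped in dbdb libraries at a ratio of means of 1.04, and did not overlap in dbR libraries at a ratio of 1.14. The sum over all 10 genes reached 1403 ± 87.6 FPKM for control, 1358 ± 18.7 for dbdb and 1312 ± 47.1 for dbR, with overlapping libraries. The abundant Aldoa, Ldha, Pgk1 and Gpi1 made up most of this sum. Of these, Ldha alone was called lower, with a mean of 378 FPKM in control and 285 in dbdb.

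Hexokinase 1, encoded by Hk1, is the widely expressed hexokinase and binds to mitochondria. The gene (ENSMUSG00000037012) lies on the minus strand of chromosome 10 at chr10:62268855-62379908 (GRCm38). Control mice had 12.9, 11.9 and 9.90 FPKM, dbdb mice 19.9, 20.6 and 23.4 FPKM and dbR mice 21.6, 21.5 and 19.9 FPKM. Every dbdb and dbR library was above every control library, and the dbdb and dbR values overlapped. The log2 fold change was 0.88 in dbdb vs. control (95% confidence interval 0.66 to 1.10, limma adjusted p = 0.000252) and 0.86 in dbR vs. control (0.64 to 1.09, limma adjusted p = 0.000319). Between dbR and dbdb it was -0.016, with an interval of -0.24 to 0.21 (limma adjusted p = 0.957), and the sign turned under quantile normalization (0.0039).

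The files list 18 transcripts of Hk1, of which 3 held at least 5% of the level of the gene. Hk1-202 (ENSMUST00000099691) measured 5.50 ± 0.313 FPKM in control, 10.7 ± 1.52 in dbdb and 10.3 ± 0.310 in dbR. Hk1-201 measured 2.95 ± 0.668, 4.80 ± 0.368 and 5.28 ± 0.599 FPKM, and ENSMUST00000130422 measured 2.34 ± 0.467, 4.53 ± 0.354 and 4.75 ± 0.807 FPKM. All 3 transcripts were thus higher in both db/db groups by their means. Hk1-202 made up 47.9% ± 3.82 of Hk1 in control, 49.9% ± 2.69 in dbdb and 49.1% ± 3.80 in dbR, differences smaller than the spread between libraries. How the reads were divided between transcripts rests on the Cufflinks model.

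Hexokinase 2 is the insulin-responsive hexokinase of muscle and fat. The gene Hk2 (ENSMUSG00000000628, chr6:82725025-82774454, minus strand) was close to the limit of measurement, at 0.258, 0.243 and 0.186 FPKM in control, 0.139, 0.0951 and 0.138 in dbdb and 0.275, 0.194 and 0.178 in dbR libraries. For a transcript of 5513 bases these levels correspond to an estimated 14 to 47 fragments per library, so counting error is a large part of their spread. All dbdb libraries were below all control and all dbR libraries. Its transcript Hk2-201 measured 0.195 ± 0.0383 FPKM in control, 0.108 ± 0.0271 in dbdb and 0.137 ± 0.0367 in dbR, and Hk2-204 measured 0.0338 ± 0.0307, 0.0158 ± 0.0274 and 0.0793 ± 0.0524 FPKM. Neither difference was called: the log2 fold change was -0.55 in dbdb vs. control (-1.07 to -0.038, limma adjusted p = 0.106) and 0.49 in dbR vs. dbdb (-0.027 to 1.01, limma adjusted p = 0.310). The call in dbdb vs. control depended on the settings, with an adjusted p in limma of 0.0489 with no filter on low levels and 0.0272 without the variance trend. The size in dbdb vs. control depended on the value added before taking logs, at -0.13 with 1 and -0.84 with 0.01 in place of 0.1.

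Glucose-6-phosphate isomerase, encoded by Gpi1 (ENSMUSG00000036427, chr7:34201330-34230336, minus strand), converts glucose 6-phosphate to fructose 6-phosphate and has no second gene. It measured 179, 182 and 182 FPKM in control, 179, 176 and 164 in dbdb and 171, 167 and 177 in dbR libraries. The groups lay close together, and the lowest control and the highest dbdb value round to the same FPKM. The log2 fold change was -0.066 in dbdb vs. control (-0.19 to 0.056, limma adjusted p = 0.410) and -0.0070 in dbR vs. dbdb (-0.13 to 0.12), and its sign in dbdb vs. control turned under quantile normalization (0.025) and with mitochondrial genes left out (0.092). Of its transcripts, Gpi1-201 held 61.4% ± 2.75 in control and 63.1% ± 1.41 in dbdb libraries, and the shorter ENSMUST00000205800 held most of the rest. In stretches of 100 bases, 4.92% of Gpi1-201 is shared with another annotated gene, Gm1840, which did not exceed 0.0296 FPKM in any library.

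Phosphofructokinase is encoded by Pfkl (liver type, ENSMUSG00000020277, chr10:77986947-78010083, minus strand), Pfkm (muscle type, ENSMUSG00000033065, chr15:98092589-98132451, plus strand) and Pfkp (platelet type, ENSMUSG00000021196, chr13:6579768-6648777, minus strand). Pfkl measured 10.01, 8.86 and 9.21 FPKM in control, 12.2, 13.2 and 12.8 in dbdb and 12.9, 12.3 and 13.5 in dbR libraries. Pfkm measured 13.9, 13.8 and 14.3 FPKM in control, 16.9, 17.1 and 16.4 in dbdb and 16.9, 15.98 and 16.4 in dbR libraries. For both genes the control libraries lay below all others, while dbdb and dbR overlapped. Pfkp measured 5.71, 5.09 and 6.03 FPKM in control, 5.68, 6.16 and 6.77 in dbdb and 6.51, 7.34 and 6.56 in dbR libraries. Its dbdb libraries overlapped both other groups, and its dbR libraries lay above the control libraries.

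Pfkl was upregulated in dbdb vs. control with a log2 fold change of 0.44 (0.28 to 0.60, limma adjusted p = 0.00161) and in dbR vs. control with 0.46 (0.31 to 0.62, limma adjusted p = 0.00134). Pfkm was upregulated by less, 0.26 in dbdb vs. control (0.14 to 0.38, limma adjusted p = 0.00674) and 0.23 in dbR vs. control (0.11 to 0.35, limma adjusted p = 0.0131). With mitochondrial genes left out, the values in dbdb vs. control were 0.60 for Pfkl and 0.42 for Pfkm. For Pfkp the values were 0.14 (-0.072 to 0.36, limma adjusted p = 0.306) and 0.28 (0.061 to 0.49, limma adjusted p = 0.0624), and neither was called. The latter was called under scaling on the 75th percentile (0.33, limma adjusted p = 0.0272) and with mitochondrial genes left out (0.37, limma adjusted p = 0.0253), and the former with mitochondrial genes left out (0.30, limma adjusted p = 0.0489). The intervals in dbR vs. dbdb were -0.13 to 0.18 for Pfkl, -0.15 to 0.090 for Pfkm and -0.081 to 0.35 for Pfkp.

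Together the phosphofructokinase genes reached 29.0 ± 1.09 FPKM for control, 35.7 ± 0.879 for dbdb and 36.1 ± 0.438 for dbR, without overlap between control and the db/db groups. Pfkm was the largest part in each group, with 48.4% ± 1.32 in control, 47.0% ± 1.49 in dbdb and 45.4% ± 0.953 in dbR. The share of Pfkl was 32.3% ± 1.31, 35.6% ± 0.559 and 35.7% ± 1.24, and that of Pfkp was 19.3% ± 1.03, 17.4% ± 1.28 and 18.8% ± 1.51. The share of Pfkl did not overlap between control and dbdb libraries, and the exact two-sided permutation test gave p = 0.10, the smallest that 3 libraries against 3 allow (adjusted p = 0.218 over 24 share comparisons). Pfkl and Pfkm came almost entirely from 1 transcript each, whereas Pfkp was divided between Pfkp-207 with 72.5% ± 4.92 and Pfkp-201 with 27.5% ± 4.92 of the gene in control.

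The mRNA level of aldolase A, which splits fructose 1,6-bisphosphate, did not separate the db/db groups from control in the manner of Hk1. Aldoa (ENSMUSG00000030695, chr7:126795234-126800751, minus strand) measured 466, 449 and 512 FPKM in control, 497, 500 and 469 in dbdb and 432, 439 and 446 in dbR libraries. All dbR libraries were below all libraries of both other groups. The transcript Aldoa-201 held 94.4% ± 0.201 of the gene in control, 95.6% ± 0.144 in dbdb and 94.95% ± 0.229 in dbR. Its log2 fold change was 0.041 in dbdb vs. control (-0.11 to 0.19, limma adjusted p = 0.701) and -0.15 in dbR vs. dbdb (-0.31 to -0.0018, limma adjusted p = 0.280). Quantile normalization gave -0.29 in dbR vs. dbdb and 0.18 in dbdb vs. control, both called (limma adjusted p = 0.0390 and 0.0368), and leaving out mitochondrial genes gave 0.20 in dbdb vs. control (limma adjusted p = 0.0129). Without control replicate 2 the value in dbdb vs. control turned to -0.00031.

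Phosphoglycerate kinase 1 makes the first ATP gained in glycolysis. Pgk1 (ENSMUSG00000062070, chrX:106187100-106203699, plus strand) measured 280, 270 and 296.0 FPKM in control, 277, 267 and 273 in dbdb and 244, 275 and 273 in dbR libraries, and all groups overlapped. The log2 fold change was -0.048 in dbdb vs. control (-0.20 to 0.099, limma adjusted p = 0.630) and -0.048 in dbR vs. dbdb (-0.20 to 0.099, limma adjusted p = 0.753). In dbdb vs. control the sign turned under scaling on the 75th percentile (0.0029), under quantile normalization (0.058) and with mitochondrial genes left out (0.11). Of the stretches of 100 bases in its transcript, 67.0% also occur in Pgk1-rs7, Gm5537 or AC131796.1, so its level depends on how reads that match several places were assigned. Pgk1-rs7, the one of these in the mRNA tables, did not exceed 1.09 FPKM.

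Pyruvate kinase forms pyruvate and ATP, and Pkm (ENSMUSG00000032294, chr9:59656368-59679375, plus strand) makes its M1 and M2 forms by including one or the other of a pair of neighbouring exons. Both exons are exon 9 of their transcript, have 167 bases and are coding. They share 103 positions (61.7%) and differ at 64, so that reads in them can be told apart. The sequences on the plus strand of GRCm38 are shown because the division of Pkm between its forms rests on them, with capitals at the positions that differ between the pair. The upstream exon, chr9:59675029-59675195, is the M1-type exon in Pkm-202 (ENSMUST00000163694), and the downstream exon, chr9:59675568-59675734, is the M2-type exon in Pkm-201 (ENSMUST00000034834).
M1-type exon: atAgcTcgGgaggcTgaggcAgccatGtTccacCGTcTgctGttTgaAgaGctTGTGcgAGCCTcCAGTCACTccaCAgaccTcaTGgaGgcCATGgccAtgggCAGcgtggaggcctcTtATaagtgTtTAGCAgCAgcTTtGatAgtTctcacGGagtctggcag
M2-type exon: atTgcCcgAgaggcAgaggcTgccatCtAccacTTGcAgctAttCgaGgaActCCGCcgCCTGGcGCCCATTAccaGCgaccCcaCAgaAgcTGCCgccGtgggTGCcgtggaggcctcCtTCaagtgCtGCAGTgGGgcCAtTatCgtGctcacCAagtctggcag

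Pkm measured 48.4, 43.6 and 44.5 FPKM in control, 78.4, 74.3 and 92.2 in dbdb and 73.3, 81.4 and 80.1 in dbR libraries. All libraries of both db/db groups were above the control libraries, and dbdb and dbR overlapped. Pkm was upregulated in dbdb vs. control by a log2 fold change of 0.84 (0.65 to 1.03, limma adjusted p = 0.000138) and in dbR vs. control by 0.78 (0.59 to 0.97, limma adjusted p = 0.000227). The value in dbR vs. dbdb was -0.056 (-0.25 to 0.13, limma adjusted p = 0.779). Of the stretches of 100 bases of Pkm-201, 9.82% also occur in the annotated genes Gm6560, Gm49759 or Gm6992.

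The transcript with the M2-type exon was the main form in each library. Pkm-201 measured 43.7, 38.5 and 39.2 FPKM in control, 69.9, 64.2 and 79.9 in dbdb and 66.1, 70.9 and 70.6 in dbR libraries. Pkm-202, with the M1-type exon, measured 4.77, 5.05 and 5.34 FPKM in control, 8.58, 10.1 and 12.4 in dbdb and 7.24, 10.5 and 9.48 in dbR libraries. Both forms were higher in every db/db library than in every control library. Pkm-201 made up 88.9% ± 1.15 of Pkm for control, 87.3% ± 1.51 for dbdb and 88.5% ± 1.54 for dbR, and the groups overlapped, so the rise of Pkm was not accompanied by a separated shift between the exons shown above. Together with Pklr, the gene of the liver and red cell pyruvate kinase, Pkm gave a summed level of 64.9 ± 5.31 FPKM in control, 116 ± 8.59 in dbdb and 107 ± 3.19 in dbR. Pkm held 70.2% ± 1.70, 70.0% ± 3.32 and 72.9% ± 2.44 of it, with overlapping groups.

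**Figure D2:**
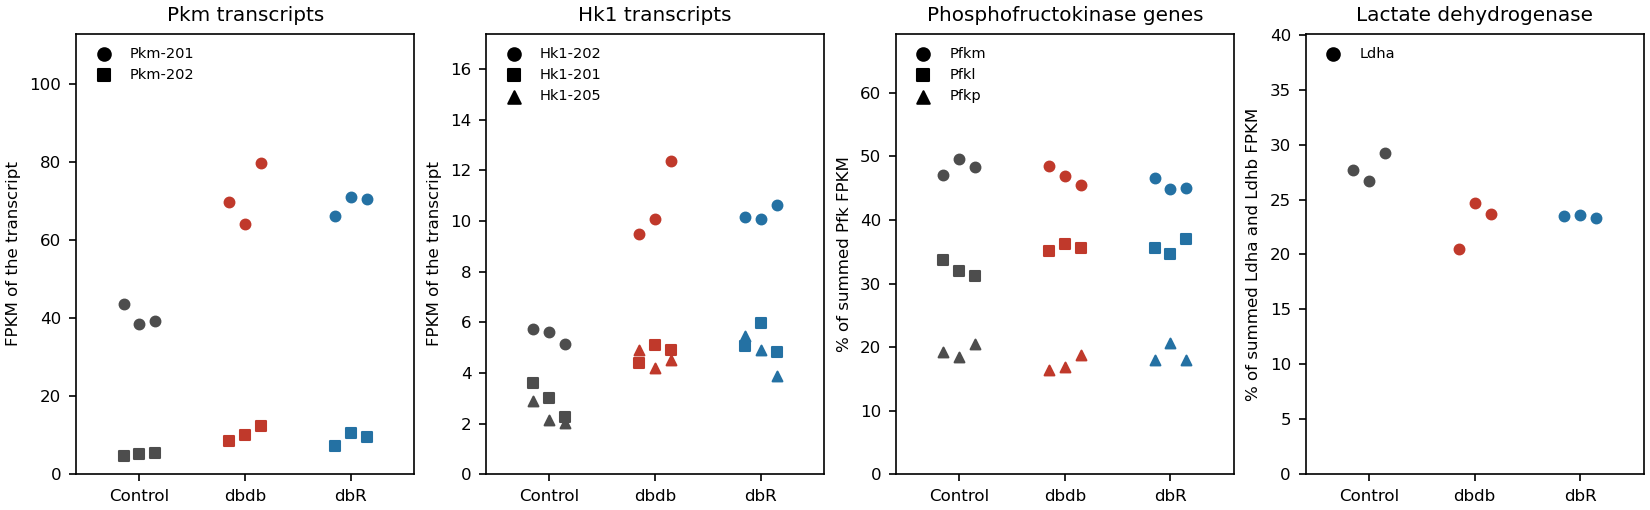
FPKM of the main Pkm and Hk1 transcripts (left pair of panels) and the share of each phosphofructokinase gene and of Ldha in the summed FPKM of its isoenzymes, in percent (right pair), for each control (grey), dbdb (red) and dbR (blue) library; marker shape gives the transcript or gene, as in each legend. Pkm-201 and Pkm-202 were both higher in all db/db libraries, and the share of Ldha was lower in them than in all control libraries.

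Lactate dehydrogenase A, the subunit that favours the conversion of pyruvate to lactate, was the one gene of the 10 that was called lower. Ldha (ENSMUSG00000063229, chr7:46841475-46855627, plus strand) measured 364, 345 and 426 FPKM in control, 270, 303 and 281 in dbdb and 278, 315 and 310 in dbR libraries. All db/db libraries were below all control libraries, and dbdb and dbR overlapped. The log2 fold change was -0.41 in dbdb vs. control (-0.61 to -0.21, limma adjusted p = 0.00884) and -0.33 in dbR vs. control (-0.53 to -0.13, limma adjusted p = 0.0260). With mitochondrial genes left out, the value in dbdb vs. control was smaller, at -0.25, and still called. The call in dbR vs. control was lost without control replicate 3 (-0.24, limma adjusted p = 0.0793), without dbR replicate 1 (-0.27, limma adjusted p = 0.0842), without dbR replicate 3 (-0.35, limma adjusted p = 0.0517) and when transcripts were fitted in place of genes (-0.33, limma adjusted p = 0.0665). For dbR vs. dbdb the value was 0.081 (-0.12 to 0.28, limma adjusted p = 0.692), which turned to -0.035 under quantile normalization.

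The transcript Ldha-202 held 99.8% ± 0.146 of Ldha in control, so the change lies in 1 transcript. Ldhb, the subunit that favours the reverse reaction, was not called, with a log2 fold change of -0.03 in dbdb vs. control (limma adjusted p = 0.835). Ldha held 27.7%, 26.6% and 29.3% of the summed FPKM of Ldha and Ldhb in control, 20.5%, 24.7% and 23.7% in dbdb and 23.5%, 23.6% and 23.3% in dbR libraries. The groups of the db/db mice did not overlap with control, at p = 0.10 in the exact permutation test (adjusted p = 0.218, n = 3 per group). Both subunits together reached 1356 ± 86.4 FPKM for control, 1243 ± 65.8 for dbdb and 1283 ± 85.0 for dbR, with overlapping libraries.

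Several glycolysis genes are known targets of the hypoxia-inducible factors, whose binding motif has the core ACGTG or GCGTG, and of E-box factors, which bind CACGTG. The 250 bases before 1 RefSeq start of each gene (GRCm38.p6), the one nearest to the start of its main transcript where RefSeq lists several, were searched for these letters on both strands, and 8 of the 10 windows held ACGTG or GCGTG, compared with 38.6% of 32851 RefSeq windows of the same length. ACGTG was in 5 of the 10 and in 16.6% of all windows, and GCGTG was in 4 and in 28.2%. Each CACGTG contains ACGTG on both strands, and it occurred in the Ldha window alone among the 10, against 6.02% of all windows. The windows of the 10 genes had 51.2% to 69.6% G and C, with a median of 62.8% against 52.4% for all windows, and the part of base composition in the difference of motif shares was not tested. The windows of Gpi1 and Pkm held none of the motifs, but the RefSeq starts used for Pkm and Hk1 lie 208 and 121 bases downstream of the GENCODE start of the main transcript, so those windows reach into it. Those of Ldha, the gene called lower, and of Pfkl, a gene called higher, are given because these genes moved in opposite directions; capitals mark the motif matches, 3 stretches in Ldha and 1 in Pfkl. The Ldha window is chr7:46845554-46845803 on the plus strand and the Pfkl window chr10:78009808-78010057 on the minus strand, both written 5′ to 3′ towards the start.
Ldha: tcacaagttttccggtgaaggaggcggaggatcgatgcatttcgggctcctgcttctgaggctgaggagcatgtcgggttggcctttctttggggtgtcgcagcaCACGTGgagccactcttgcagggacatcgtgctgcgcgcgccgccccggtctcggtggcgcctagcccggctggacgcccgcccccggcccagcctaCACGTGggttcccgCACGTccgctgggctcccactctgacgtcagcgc
Pfkl: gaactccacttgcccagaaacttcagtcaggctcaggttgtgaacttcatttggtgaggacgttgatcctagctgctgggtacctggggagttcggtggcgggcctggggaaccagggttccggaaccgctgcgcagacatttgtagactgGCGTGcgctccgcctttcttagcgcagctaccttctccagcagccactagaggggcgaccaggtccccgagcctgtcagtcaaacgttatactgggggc

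Counted over the 10 genes, 5 were called in dbdb vs. control, compared with 26.4% of all genes tested, and 7 had groups without overlap, compared with 42.4%. By direction, 4 were called higher against a background of 13.1%, and 1 was called lower against 13.4%. The median log2 fold change of the 10 genes was 0.091, and that of all genes was -0.0030. For dbR vs. control 5 were called and 8 did not overlap, against 24.1% and 41.9% of all genes, with 4 called higher (background 12.3%) and 1 lower (11.8%), and the median was 0.082, against -0.0014 for all genes. After rosiglitazone, dbR vs. dbdb, 0 of 10 were called by limma at an adjusted p under 0.05, against 0.743% of all genes, so a count of 0 is near that background. Aldoa alone had an unadjusted limma p under 0.05 in that comparison, 1 of 10 against 17.5% of all genes. The groups of Hk2 and Aldoa did not overlap, 2 of 10 against 22.7%. The median of the 10 genes was -0.011, against -0.0022 for all genes. The widest interval in dbR vs. dbdb was that of Hk2, and the intervals of the other 9 genes reached no farther than 0.35 above and -0.31 below 0.

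**Figure D3:**
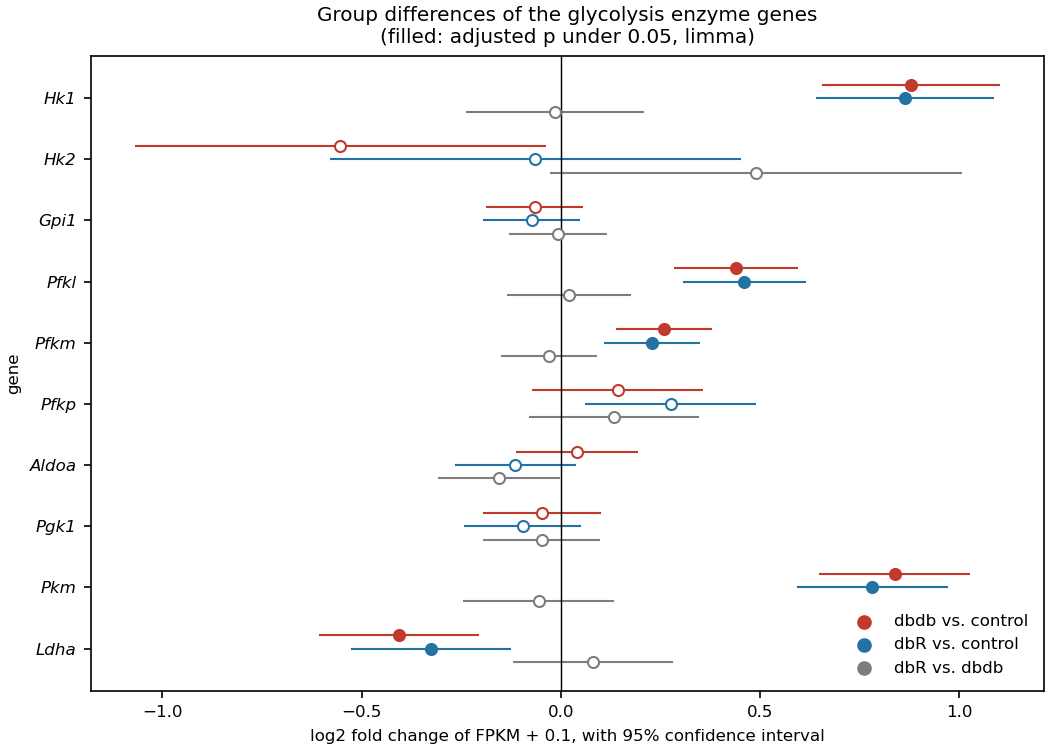
Log2 fold change of FPKM + 0.1 for each of the 10 genes in dbdb vs. control (red), dbR vs. control (blue) and dbR vs. dbdb (grey), with 95% confidence intervals from limma; filled points have an adjusted p under 0.05. The 5 filled genes are the same in both comparisons with control, and no grey point is filled; small unfilled values around 0, such as those of Gpi1 and Pgk1, change sign with the scaling.

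Over the 9 libraries, Hk1, Pkm, Pfkl and Pfkm varied together on the log2 scale. Pearson's r was 0.97 between Hk1 and Pkm, 0.95 between Hk1 and Pfkl and 0.94 between Pfkl and Pfkm. Ldha ran opposite to them, with r = -0.91 against Hk1 and -0.84 against Pkm. These coefficients describe 9 points that share libraries and group differences. The tested genes most like Hk1 were Atp6v0d2 (r = 0.996), a subunit of the proton pump, Kcnj10 (0.99), a basolateral potassium channel, and Rap1gap2 (0.99). Those most like Pkm were Cuedc1, Exph5 and Lurap1 (0.99 each), and those most like Pfkl were Gpx3, Cwh43 and the sodium channel subunit Scnn1a (0.98 each). Pfkm was most like Hif3a and Nphp4 (0.98 each), and Ldha was most like Slc44a4, Memo1 (0.99 each) and Dpp8 (0.98).

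Markers of several distal nephron cell types were higher in the same libraries. In dbdb vs. control 4 of 4 distal convoluted tubule markers, 4 of 5 collecting duct principal cell markers and 5 of 5 intercalated cell markers were called higher, against 13.1% of all genes, with median log2 fold changes of 0.89, 1.02 and 0.72. The counts were the same in dbR vs. control, against 12.3% of all genes, with medians of 0.88, 0.91 and 0.74. Their summed levels ranged from 162 to 183 FPKM in control and 298 to 326 in dbdb for the distal convoluted tubule, from 108 to 132 and 177 to 271 for principal cells, and from 39.9 to 42.8 and 65.6 to 73.2 for intercalated cells. None of these 3 sums overlapped between control and dbdb, as was the case for Hk1 and Pkm and for 42.4% of all genes. The summed proximal tubule markers ranged from 7005 to 7736 FPKM in control and 4993 to 5760 in dbdb, with 2 of 8 called higher (Slc5a2, Slc5a12) and 2 of 8 lower (Slc27a2, Acsm2). The lower sum came from the 2 latter genes, Acsm2 with mean levels of 2925 and 1460 FPKM and Slc27a2 with 1749 and 1100, while the median log2 fold change of the 8 markers was 0.099. Of the thick ascending limb markers 1 of 4 was called higher in dbdb vs. control, and of the podocyte markers 2 of 5, small counts beside the same 13.1%. In dbR vs. control these counts were 3 of 4 and 2 of 5, against 12.3% of all genes. In these bulk samples more cells of a type and more RNA per cell cannot be told apart, and the part of these markers in the changes of Hk1, Pkm, Pfkl, Pfkm and Ldha was not tested.

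Leukocyte and endothelial markers went down. All 6 macrophage and leukocyte markers were called lower in dbdb vs. control, against 13.4% of all genes, with a median of -1.23 and a summed level of 40.6 to 51.1 FPKM in control and 16.2 to 22.2 in dbdb, and 4 of 5 endothelial markers were called lower, with sums of 109 to 120 and 79.1 to 86.2 FPKM. With rosiglitazone, dbR vs. dbdb, 2 of 5 endothelial markers (Kdr, Emcn) were called higher, when 0.743% of all genes were called in either direction, with sums of 110 to 129 FPKM in dbR. Of the 6 leukocyte markers 0 were called in dbR vs. dbdb, but all 6 had higher values, with a median of 0.50. Their groups did not overlap for 4 of 6, against 22.7% of all genes, and their sums were 24.9 to 30.5 FPKM in dbR. The intercalated cell marker Atp6v1g3 was also called higher in that comparison (0.52, limma adjusted p = 0.0251). No erythroid marker was called in any comparison by limma. Of the 5 adipocyte markers 3 were tested and 1, Fabp4, was called lower in dbdb vs. control and higher in dbR vs. dbdb, while the defining markers Adipoq and Plin1 stayed at or below 0.51 FPKM. Of the 5 skeletal muscle markers 1 was tested and not called, with a summed level of at most 2.39 FPKM. Without dbR replicate 2 no more than 2 of all genes were called in dbR vs. dbdb, so not all marker calls named for that comparison hold without it.

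**Figure D4:**
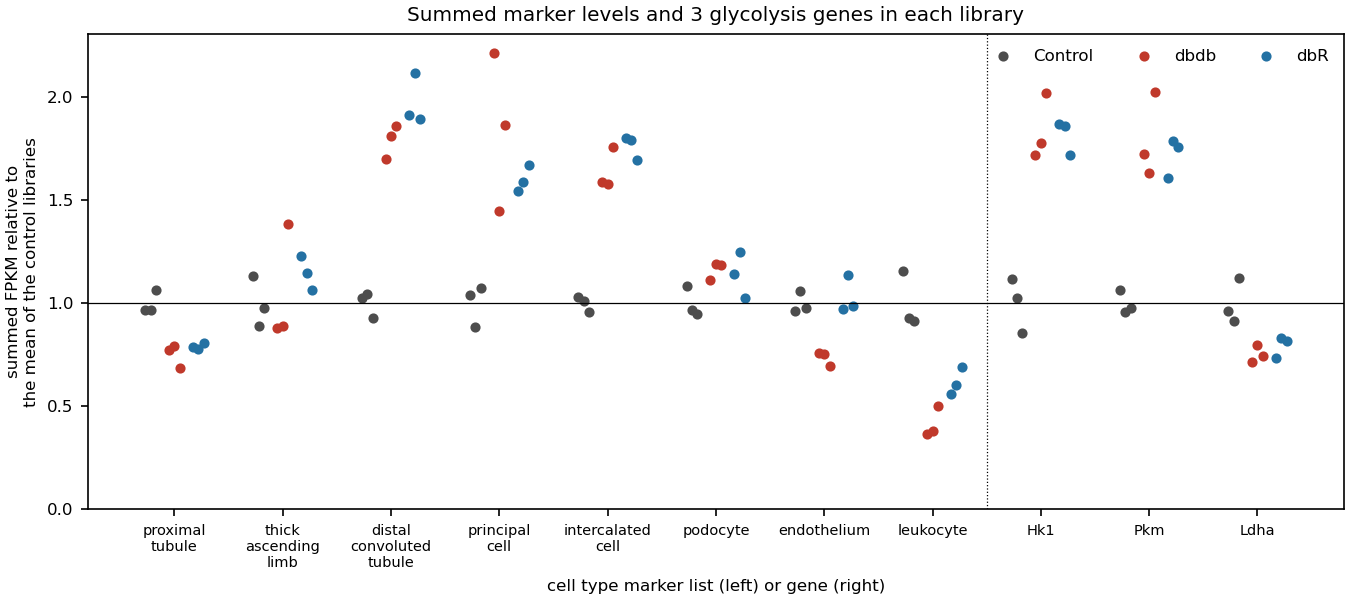
Summed FPKM of 8 lists of cell type markers (left of the dotted line) and FPKM of Hk1, Pkm and Ldha (right), each divided by the mean of the 3 control libraries, for every control, dbdb and dbR library; the line at 1 is the control mean. The distal tubule, principal and intercalated cell sums lie above 1 in all db/db libraries, as do Hk1 and Pkm, and the leukocyte sums lie below 1; the proximal tubule sums also lie below 1, which rests on 2 abundant markers, Acsm2 and Slc27a2.

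The other enzymes of the pathway were given by a list of 18 genes, of which 13 passed the minimum level. In dbdb vs. control 4 of 13 were called higher and 0 lower, against 13.1% and 13.4% of all genes, with a median log2 fold change of 0.36. They were Pgam2, the muscle phosphoglycerate mutase (1.07, limma adjusted p = 0.000219), Pklr (0.84, limma adjusted p = 0.000362), Aldoc (0.78, limma adjusted p = 0.00413) and the enolase Eno1 (0.36, limma adjusted p = 0.0215). Pklr measured 22.6, 17.7 and 18.1 FPKM in control and 37.9, 33.5 and 32.8 in dbdb libraries, so both pyruvate kinase genes rose. In dbR vs. control 3 of the 4 were called, Pgam2, Pklr and Aldoc, and in dbR vs. dbdb 0 of 13 were called in limma, near the background of 0.743%. The abundant genes Gapdh and Tpi1 were not called in dbdb vs. control, at -0.15 and -0.23 (limma adjusted p = 0.204 and 0.0972).

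Enzymes that run against glycolysis rose as well. Of 7 gluconeogenesis genes 6 were called higher in dbdb vs. control, against 13.1% of all genes, with a median of 0.46. G6pc, which releases free glucose in reversal of the hexokinase step, measured 126, 163 and 199 FPKM in control and 465, 425 and 409 in dbdb libraries, a log2 fold change of 1.43 (limma adjusted p = 0.000193). Pck1, the rate-limiting enzyme of glucose synthesis from oxaloacetate, rose by 1.41 (limma adjusted p = 0.000207), and Pcx, which makes oxaloacetate from pyruvate, by 0.46 (limma adjusted p = 0.00246). Also called were Pck2 (0.41, limma adjusted p = 0.0273), Fbp1, which reverses the phosphofructokinase step (0.26, limma adjusted p = 0.0275), and Fbp2 (0.47, limma adjusted p = 0.0355). In dbR vs. control 4 of 7 were called higher, against 12.3% of all genes, and in dbR vs. dbdb 0 of 7 were called in limma, near the background of 0.743%.

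Genes that direct the use of pyruvate were also measured. Among 16 regulators and transporters 4 were called higher and 1 lower in dbdb vs. control, a total near the 26.4% of all genes called, with a median of 0.085. Pyruvate dehydrogenase kinases, which switch off the entry of pyruvate into the mitochondrial cycle, gave 4 of these 5. Pdk4 measured 1.34 ± 0.154 FPKM in control libraries, 3.99, 3.64 and 5.21 in dbdb and 1.95, 2.18 and 2.14 in dbR libraries, so that the 3 groups did not overlap. It rose by 1.60 in dbdb vs. control (limma adjusted p = 7.33e-05) and fell by 0.98 in dbR vs. dbdb (limma adjusted p = 0.0254), the single call of the 16 in that comparison. Without dbR replicate 2 the 2 genes still called in dbR vs. dbdb were both higher, so the call of Pdk4 was lost. Pdk1 rose from 5.72 ± 0.335 FPKM in control to 16.0 ± 1.02 in dbdb (1.47, limma adjusted p = 5.65e-06), and Pdk3 fell by 1.20 (limma adjusted p = 4.95e-05). Pdk2 (0.53, limma adjusted p = 0.00579) and the monocarboxylate transporter Slc16a7 (0.49, limma adjusted p = 0.00246) were also called higher. The genes of the enzymes that make the phosphofructokinase activator fructose 2,6-bisphosphate, Pfkfb1 to Pfkfb4, were not called in any of the 3 comparisons.

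**Figure D5:**
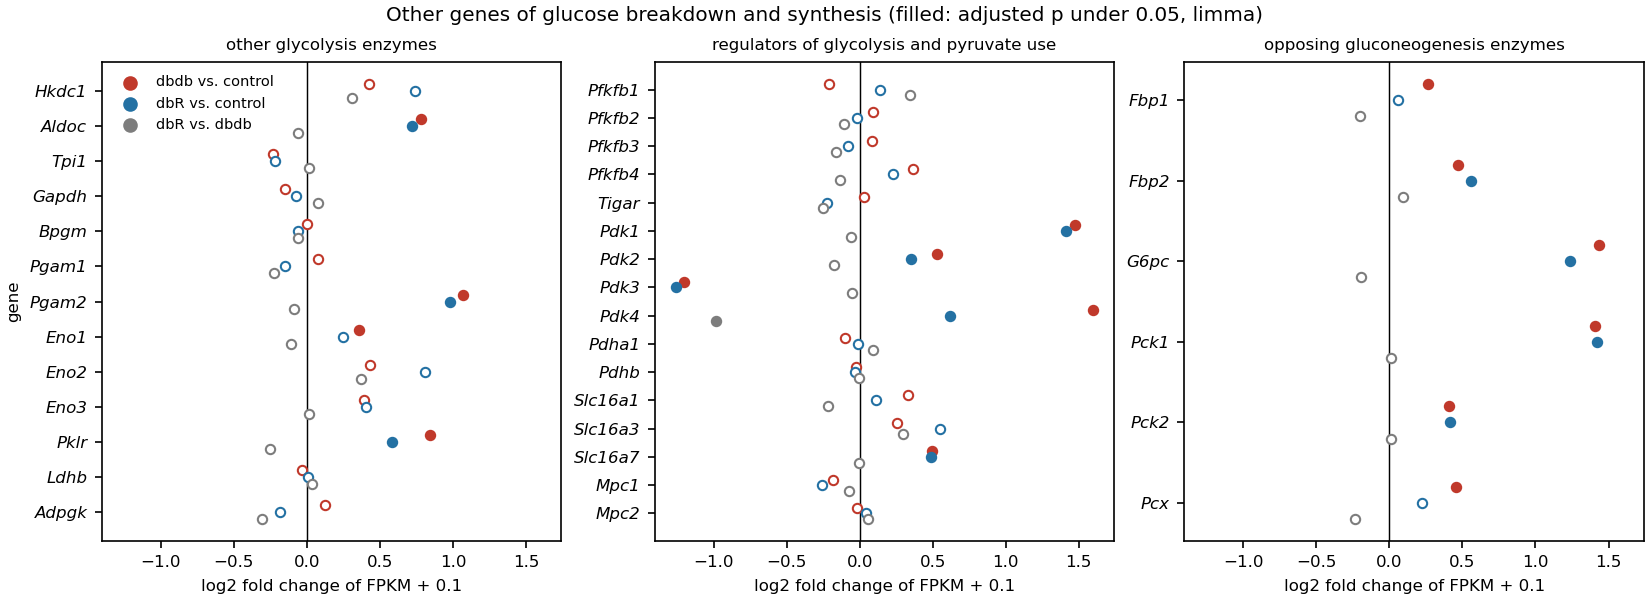
Log2 fold change of FPKM + 0.1 for tested genes of 3 further lists, other glycolysis enzymes (left), regulators of glycolysis and pyruvate use (middle) and gluconeogenesis enzymes (right, 6 of 7 shown), in dbdb vs. control (red), dbR vs. control (blue) and dbR vs. dbdb (grey); filled points have an adjusted p under 0.05 in limma. Pdk4 carries the only filled grey point.

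Hypoxia-inducible genes outside glycolysis, a list that also holds the factor genes Hif1a and Epas1, did not move in 1 direction. Of 15 tested, 5 were called higher and 2 lower in dbdb vs. control, against 13.1% and 13.4% of all genes, with a median of 0.11. Ndrg1 (0.87, limma adjusted p = 0.00118), Hif1a (0.32, limma adjusted p = 0.00238) and Epas1 (0.34, limma adjusted p = 0.00895), the latter pair encoding subunits of the hypoxia-inducible factors, were higher. P4ha1, a collagen prolyl hydroxylase, fell by 0.72 (limma adjusted p = 0.000448). Adm, the gene of the vasodilator adrenomedullin, rose by 0.70 (limma adjusted p = 0.0159). Egln3 was also called higher (0.64, limma adjusted p = 0.0398), with overlapping libraries, and Car9 lower (-0.53, limma adjusted p = 0.0282). Vegfa, Bnip3 and Egln1 were not called, with values of 0.04, 0.11 and -0.01 (limma adjusted p = 0.698, 0.312 and 0.899). In dbR vs. control 3 were called higher and 1 lower, against 12.3% and 11.8% of all genes, and in dbR vs. dbdb 0 of 15 in limma, near the background of 0.743%.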

How the data were processed

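Total RNA of the renal cortex was sequenced from 9 mice, 3 per group. Per the labels and the study's methods, the authors depleted ribosomal RNA, prepared directional paired-end libraries, aligned reads with TopHat2 (2.0.9) to GRCm38.p2, assembled transcripts with Scripture and Cufflinks (2.1.1) and deposited FPKM values per transcript and library, made with Cufflinks. FPKM values of the lncRNA tables were not used here.

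FPKM was summed per gene, and genes with a mean of at least 0.1 FPKM were kept (14537 of 21950). log2(FPKM + 0.1) was fitted in limma (3.58.1, R 4.3.3) with a variance trend, in 1 model of the 9 libraries. Tests were two-sided with Benjamini-Hochberg adjustment over all genes per comparison, and the threshold for a call was an adjusted p under 0.05 whatever the fold change. The added 0.1 makes fold changes of genes with low levels too small. FPKM holds no counts. Depth was estimated from the steps between low values of 5368 genes with 1 transcript, relative to control replicate 1 (relative depth 0.914 to 1.14), and the fragment numbers are estimates. Shares of isoenzymes were compared with exact two-sided permutation tests. The script for the fit was tested on simulated data.

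The 10 genes, the further gene lists and the tests were chosen with earlier results of these data known. All 10 genes were described, with up to 5 called genes per further pathway list by smallest adjusted p, some of the called genes of marker lists, which are otherwise given as counts, up to 3 genes most correlated with each gene called in dbdb vs. control, and transcripts with at least 5% of a gene. Fbp2, Ldhb, Gapdh, Tpi1, the Pfkfb genes, Egln3, Car9, Vegfa, Bnip3, Egln1, Adipoq and Plin1 were named in addition, after their values were seen. Coordinates and the Pkm exons were taken from GENCODE annotation of GRCm38 and windows before gene starts from RefSeq (GRCm38.p6), where all 10 genes matched. Mice were separate animals, so p-values measure the spread between mice. Alternatives were another pseudocount, filter, scaling, variance model, selection of libraries, a replicate block, leaving out each library and transcript-level fits. The shares of the hexokinase and aldolase genes, 1 gluconeogenesis gene and 1 correlated gene are not reported here.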

Additional observations from a re-analysis of the deposited data

How the results depend on the processing

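Hk1, Pfkl, Pfkm, Pkm and Ldha were called in the same direction in dbdb vs. control under each of 20 alternatives, with 5 genes called when any 1 library was left out and 5 to 7 under the others. In dbR vs. control 4 to 5 were called with a library left out and 4 to 6 otherwise, and Ldha was the gene lost. In dbR vs. dbdb 0 were called under 19 alternatives and 1, Aldoa, under quantile normalization, while the number of all genes called ranged from 2, without dbR replicate 2, to 234, under quantile normalization. Leaving out mitochondrial genes moved the median log2 fold change of all genes to 0.15 in dbdb vs. control, 0.089 in dbR vs. control and -0.063 in dbR vs. dbdb. Ldha was then at -0.25 in dbdb vs. control (limma adjusted p = 0.0189). It also turned Gpi1 (0.092) and Pgk1 (0.11) in dbdb vs. control, Pfkl (-0.042) in dbR vs. dbdb, and Gpi1 (0.022) and Hk2 (0.0017) in dbR vs. control. Quantile normalization turned Gpi1 (0.025) and Pgk1 (0.058) in dbdb vs. control, and for dbR vs. dbdb Hk1 (0.0039) and Ldha (-0.035); scaling on the 75th percentile turned Pgk1 (0.0029) in dbdb vs. control, plus Gpi1 (0.00053) in dbR vs. dbdb, and the transcript-level fit turned Pfkp (-0.047) in dbR vs. dbdb; the cause was not tested. In the comparisons with control no called gene turned.

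With 1 library left out, values that changed sign ranged from -0.00031 to 0.095 for Aldoa in dbdb vs. control. For dbR vs. dbdb they ranged from -0.062 to 0.054 for Hk1, -0.043 to 0.018 for Gpi1, -0.012 to 0.054 for Pfkl, -0.079 to 0.0070 for Pgk1 and -0.12 to 0.035 for Pkm, and Hk2 ranged from -0.19 to 0.021 in dbR vs. control. Differences of shares in percentage points that changed sign ranged from -0.578 to 0.649 for Pfkl and -0.711 to 1.39 for Ldha in dbR vs. dbdb, from -1.37 to 0.0363 for Pfkp in dbR vs. control and from -2.00 to 1.17 for Pkm in dbdb vs. control.

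Same-numbered libraries did not deviate together (r = -0.175 to 0.0615 for 9 pairs, none over 0.1), so no pairing by number was seen. With 3 libraries per group this check cannot exclude a pairing. With the number as a replicate block 5, 0 and 5 of the 10 genes were called in dbdb vs. control, dbR vs. dbdb and dbR vs. control. Differences of shares, such as 3.34 percentage points for Pfkl and -4.89 for Ldha in dbdb vs. control, cannot change with the block in this balanced design. The count of all genes fell to 3345, 23 and 3030. With 3 mice per group small differences could not be resolved, Hk2 had no value at a minimum of 1 FPKM, and read depth per gene is known as an estimate only.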
